A study of Mus musculus with 48 samples.

Results

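Mki67, Rrm2, Birc5 and Aurka are 4 genes whose transcripts mark dividing cells, and their levels were followed across whole kidneys of mice given vancomycin, a glycopeptide antibiotic with known kidney toxicity. They were chosen by name, and each was carried by 1 probe set among the 7859 genes that could be named in a table of 45101 probe sets. The data came from 48 female BALB/c mice, with 1 single-colour Affymetrix array per mouse. The animals received 7 daily injections into a vein (iv) or into the abdominal cavity (ip) and were killed on day 8. Each route had a saline group and groups at 50, 200 and 400 mg/kg of vancomycin, with 6 mice in each of the 8 groups. All mice were of the same strain and sex, and no genetic change is named. Their age is not given in the labels used here.

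In saline kidneys Birc5 and Aurka were at the background of the array and Mki67 and Rrm2 were low, and all 4 were high in every mouse given 400 mg/kg by either route. At 200 mg/kg some iv mice approached the 400 mg/kg levels and others stayed near saline, while no ip 200 mouse was above its highest control in Mki67 or Birc5. The difference between routes at that dose passed its test for Birc5 alone, and not in most alternatives.

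Cells that enter division first copy their DNA and then separate the copies in mitosis. Rrm2 encodes the small subunit of ribonucleotide reductase, the enzyme that makes deoxyribonucleotides, and is produced mainly in S phase. Mki67 encodes Ki-67, a nuclear protein of cycling cells that coats mitotic chromosomes and is used as a stain for proliferation. Birc5 encodes survivin, a member of the inhibitor of apoptosis family that acts in the chromosomal passenger complex with Incenp and the kinase Aurkb. Aurka encodes Aurora A, a kinase of the centrosome and the spindle. In the adult kidney tubule cells divide rarely, and after acute injury surviving tubule cells, along with interstitial and infiltrating cells, can enter the cycle.

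The promoters of the 4 genes are shown because cell cycle genes share short control elements, and the 4 transcripts moved together in these kidneys. Each sequence is 300 bases from RefSeq (GRCm38.p6), 250 before and 50 after the start site that the table uses, on the gene's own strand. Matches to the cell cycle homology region (CHR, TTTGAA or TTCGAA), the CCAAT box (CCAAT) and E2F-like words (TTTGGCGC, TTTCCCGC or TTTCGCGC) are in capitals, searched on both strands. Mki67 lies at chr7:135716330-135716629 (minus strand), Rrm2 at chr12:24708004-24708303 (plus), Birc5 at chr11:117848987-117849286 (plus) and Aurka at chr2:172370521-172370820 (minus).
Mki67: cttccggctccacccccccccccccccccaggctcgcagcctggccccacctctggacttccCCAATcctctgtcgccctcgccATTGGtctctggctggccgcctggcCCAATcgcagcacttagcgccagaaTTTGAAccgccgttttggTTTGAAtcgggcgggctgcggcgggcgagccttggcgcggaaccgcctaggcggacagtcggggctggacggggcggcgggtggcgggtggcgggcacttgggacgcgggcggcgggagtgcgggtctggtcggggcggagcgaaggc
Rrm2: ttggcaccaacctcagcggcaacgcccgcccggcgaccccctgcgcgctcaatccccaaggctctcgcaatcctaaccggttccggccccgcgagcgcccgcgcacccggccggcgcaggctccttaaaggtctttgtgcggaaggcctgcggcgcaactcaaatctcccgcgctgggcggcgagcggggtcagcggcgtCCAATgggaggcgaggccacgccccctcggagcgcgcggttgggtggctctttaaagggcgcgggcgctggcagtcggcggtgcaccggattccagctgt
Birc5: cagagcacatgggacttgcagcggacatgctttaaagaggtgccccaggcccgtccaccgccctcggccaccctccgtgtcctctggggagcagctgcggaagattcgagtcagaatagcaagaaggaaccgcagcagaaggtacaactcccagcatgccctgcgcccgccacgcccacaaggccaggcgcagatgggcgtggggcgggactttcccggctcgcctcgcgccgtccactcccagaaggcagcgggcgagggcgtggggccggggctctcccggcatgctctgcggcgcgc
Aurka: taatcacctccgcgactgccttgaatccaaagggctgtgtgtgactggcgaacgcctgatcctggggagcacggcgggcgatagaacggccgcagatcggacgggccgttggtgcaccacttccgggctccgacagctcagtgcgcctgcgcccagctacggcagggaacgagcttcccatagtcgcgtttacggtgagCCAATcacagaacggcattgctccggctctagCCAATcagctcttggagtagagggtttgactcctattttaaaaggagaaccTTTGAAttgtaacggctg

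The Mki67 promoter held 2 CHR words, 116 and 98 bases before the start site, and 3 CCAAT boxes farther upstream. Aurka had 1 CHR word 32 bases after the start and 2 CCAAT boxes, 51 and 19 bases before it. The whole Aurka window lies within the gene span given below, so its matches are inside the gene as annotated. The Mki67 window lies partly within its own span. Rrm2 had a single CCAAT box, 50 bases before the start, and no CHR word. Birc5 held neither, and no E2F-like word or TATA word (TATAAA) was found in any of these 4 windows. Among all 32851 promoters of the same length in that table, 19.2% held a CHR word, 37.4% a CCAAT box and 13.6% a TATA word, and 606 held an E2F-like word. A match is a description of letters and was not tested as a binding site. The bases were 72.7% G or C in Mki67, 71.3% in Rrm2, 68.7% in Birc5 and 58.0% in Aurka, with a median of 52.7% over all promoters.

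The names rest on a reconstruction, because the identifiers of the table are displaced from the values they belong to. A name was given only to 11000 rows (24.4%) in 3 stretches whose values follow the identifiers at a constant shift. Within them, levels of probe sets of the same gene correlated at 0.494 over 2927 pairs, against 0.142 over 3132 pairs with the identifiers as listed and 0.144 and 0.142 at a shift 1 row off. Every gene name below holds only as far as this shift does. The labelled tissue showed in its defining genes: in iv saline, mean log2 intensity was 12.77 for Lrp2, the megalin receptor of the proximal tubule, and 13.23 for the phosphate transporter Slc34a1. Array medians (log2 intensity) lay between 3.34 and 3.55 by iv and between 3.47 and 3.68 by ip, and no 2 arrays held identical values. Values are log2 intensities unless a fold is named. The median of the whole table, 3.47, is used as a rough guide to the background.

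Mki67 was measured by probe set 1426817_at, and the gene spans chr7:135689784-135716450. In iv saline its lowest, median and highest log2 levels were 3.56, 3.97 and 4.39. The iv 50 mg/kg mice had 3.23, 3.88 and 4.46, the iv 200 mice 4.12, 5.91 and 8.34, and the iv 400 mice 7.60, 8.65 and 8.99. By ip they were 3.08, 3.50 and 3.86 in saline, 3.12, 3.62 and 5.74 at 50 mg/kg, 3.21, 3.41 and 3.51 at 200 mg/kg, and 8.56, 9.10 and 9.74 at 400 mg/kg. All 12 mice at 400 mg/kg were above every saline mouse, and the iv 200 group stretched from the saline range into the 400 mg/kg range.

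Rrm2 was measured by probe set 1434437_x_at, a design whose probes may also bind related transcripts, and it is the only one of 3 Rrm2 sets on the array that could be named. The gene spans chr12:24708254-24714146. Its lowest, median and highest levels were 4.54, 4.66 and 4.97 with iv saline. The iv 50 mg/kg mice had 4.16, 4.76 and 5.61, the iv 200 mice 4.57, 7.29 and 8.77, and the iv 400 mice 8.88, 9.61 and 10.06. By ip they were 4.62, 5.07 and 5.73 in saline, 5.03, 5.60 and 6.98 at 50, 5.00, 5.57 and 5.71 at 200, and 8.63, 9.67 and 10.32 at 400 mg/kg. Rrm2 was above the table median in all 48 arrays, and at iv 400 mg/kg every mouse was above every iv 200 mouse.

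Birc5 was measured by probe set 1424278_a_at, and the gene spans chr11:117849237-117855743. With iv saline the lowest, median and highest levels were 2.55, 3.07 and 3.18. The iv 50 mg/kg mice had 2.62, 3.22 and 3.33, the iv 200 mice 3.18, 4.59 and 7.14, and the iv 400 mice 6.60, 7.74 and 7.88. By ip they were 2.86, 3.06 and 3.09 in saline, 2.77, 3.06 and 3.79 at 50, 2.72, 2.86 and 3.06 at 200, and 7.08, 7.54 and 8.56 at 400 mg/kg. Birc5 lay under the table median in all saline mice. Its iv 200 and iv saline ranges met without overlap at 3.1834 in mouse 28 and 3.1827 in the highest control, values under the table median that are not told apart.

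Aurka was measured by probe set 1424511_at, 1 of 2 Aurka sets on the array, and the gene spans chr2:172356190-172370886. Iv saline mice had lowest, median and highest levels of 2.09, 2.11 and 2.29. The iv 50 mg/kg mice had 2.04, 2.10 and 2.12, the iv 200 mice 2.10, 2.61 and 5.34, and the iv 400 mice 5.18, 5.68 and 6.00. By ip they were 2.02, 2.07 and 2.07 in saline, 2.04, 2.06 and 2.07 at 50, 2.00, 2.05 and 2.17 at 200, and 4.96, 5.24 and 6.75 at 400 mg/kg. Outside the groups iv 200, iv 400 and ip 400, none of the 30 arrays measured Aurka above the table median, so its low levels have no order.

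**Figure D1:**
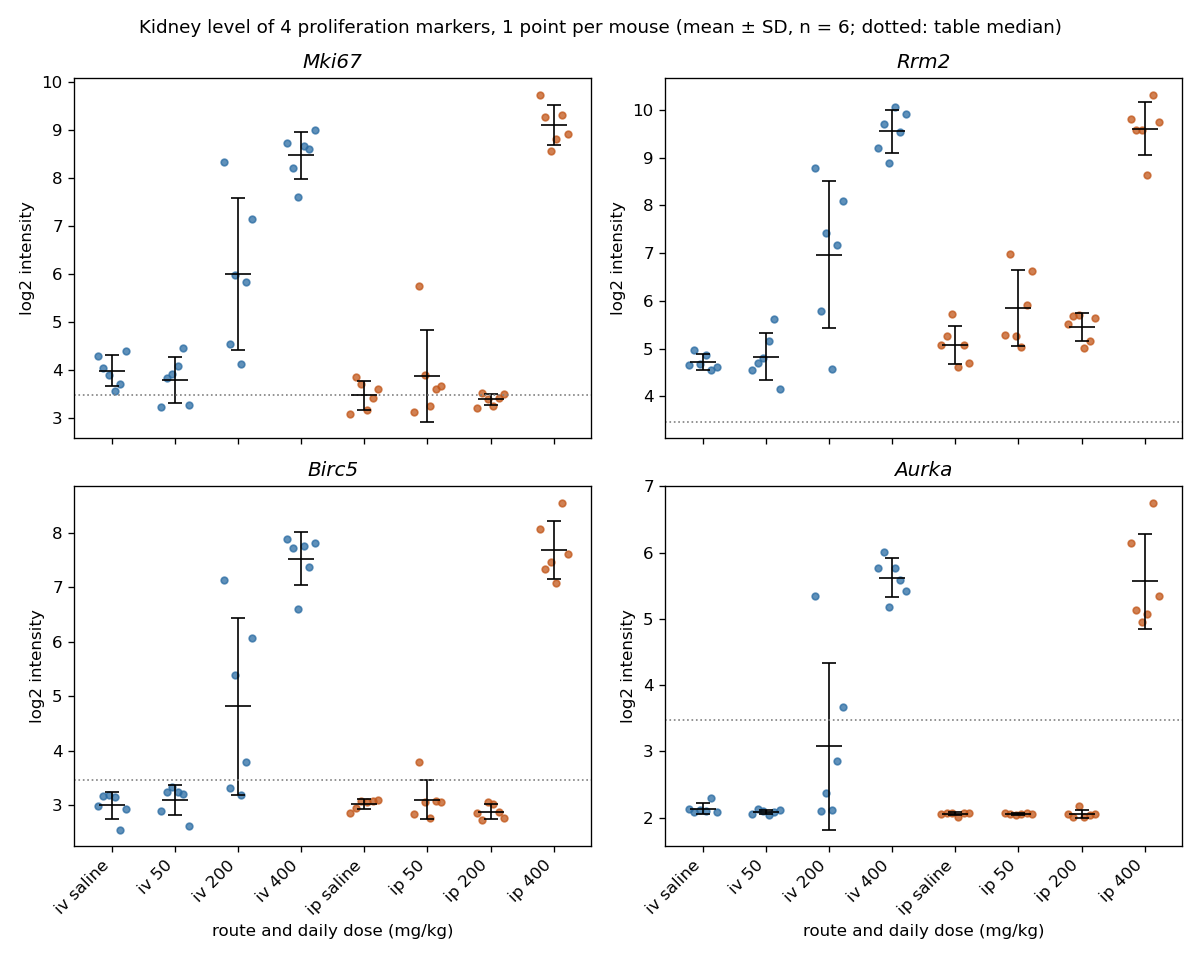
Log2 intensity (vertical axis) of each of the 4 genes in every mouse (points), by route and daily dose in mg/kg, with the mean and SD of each group of 6 (black) and the table median of 3.47 (dotted). Blue points are iv and orange points ip mice; both 400 mg/kg groups stand high in each panel, and the iv 200 group is spread between saline and 400 mg/kg levels.

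By group means, the order was the same at the top for all 4 genes: both 400 mg/kg groups came first, followed by iv 200. Between both 400 mg/kg groups the ranges overlapped for every gene. Iv 200 overlapped with the 400 mg/kg group next above it for Mki67, Birc5 and Aurka and did not for Rrm2. Below iv 200 the ranges of all neighbouring groups in the order overlapped.

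At iv 400 mg/kg all 4 genes rose against iv saline. The log2 fold change was 4.83 for Rrm2 (95% interval 4.04 to 5.62, adjusted p = 1e-13), 4.53 for Birc5 (3.80 to 5.26, adjusted p = 8.1e-14), 4.49 for Mki67 (3.68 to 5.30, adjusted p = 1.2e-12) and 3.48 for Aurka (2.90 to 4.07, adjusted p = 1.9e-13). These are 28.4-fold, 23.1-fold, 22.5-fold and 11.2-fold, and in each gene all 6 treated mice were above all 6 controls. Of the 5745 genes tested, 49.7% passed an adjusted p of 0.05 in this comparison, 30.7% upward and 19% downward, so a call by itself is common here.

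At ip 400 mg/kg all 4 genes rose too. The log2 fold change against ip saline was 5.64 for Mki67 (4.83 to 6.45, adjusted p = 5.6e-16), 4.67 for Birc5 (3.94 to 5.40, adjusted p = 5.9e-15), 4.53 for Rrm2 (3.74 to 5.32, adjusted p = 1.4e-13) and 3.51 for Aurka (2.92 to 4.09, adjusted p = 3.9e-14). These are 49.7-fold, 25.5-fold, 23.1-fold and 11.4-fold, with no overlap between groups in any gene. Here 61.3% of all genes passed the test, 36.3% upward and 25.1% downward. Against ip 200 mg/kg all 4 rose as well, by 5.72 (Mki67), 4.81 (Birc5), 4.16 (Rrm2) and 3.51 (Aurka) on the log2 scale, where 60.6% of all genes were called.

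The sizes for Birc5 and Aurka depend on the floor of the array, since their saline levels are at background. The ip sizes for Mki67 also start near that floor. Its ip saline mean was 3.47, with 3 of 6 arrays above the table median, and at ip 200 mg/kg 2 of 6 were above it. With 16 added to every intensity before log2, the iv 400 change became 1.68 for Aurka and 3.06 for Birc5, and the ip 400 change 1.68 and 3.21. Both genes also passed the filter on low values (above 3.47 in at least 6 arrays) only through treated groups: outside iv 200, iv 400 and ip 400, Birc5 was above it in 1 of 30 arrays and Aurka in 0. Mki67 was above it in 19 and Rrm2 in 30 of those arrays. With no filter at all, the 400 mg/kg calls on all 4 genes stayed, with adjusted p between 3e-15 and 5e-12. In bulk kidney RNA, more cells that carry a transcript and more transcript per cell cannot be told apart.

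**Figure D2:**
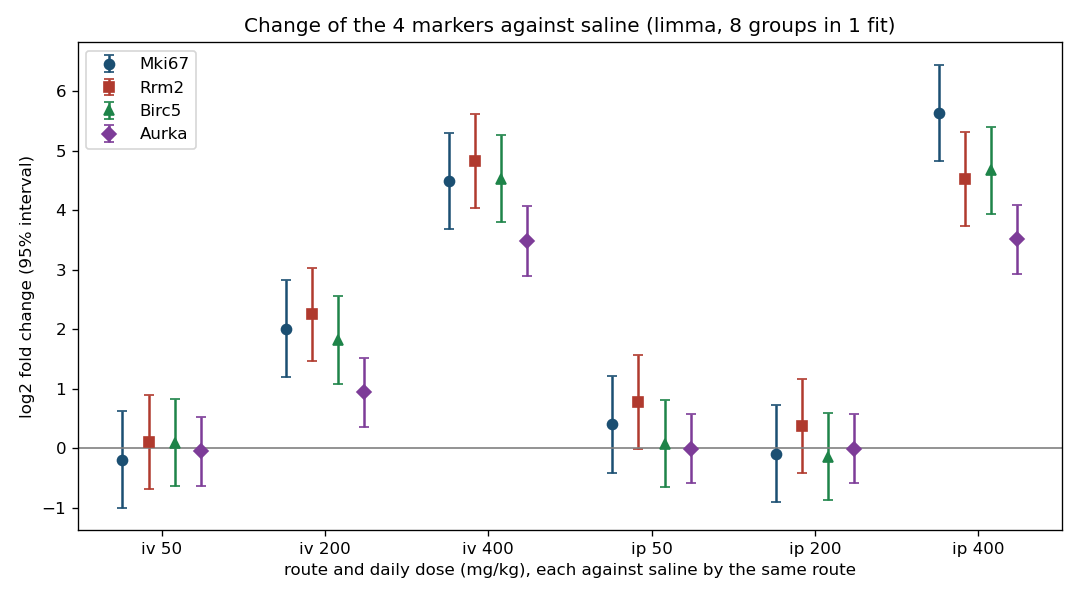
Log2 fold change against saline by the same route (points) with its 95% interval (bars) for the 4 genes at each route and daily dose in mg/kg, from limma with 8 groups in 1 fit. The 400 mg/kg changes lie between 3.48 and 5.64, those of iv 200 between 0.94 and 2.25, and the intervals of iv 50, ip 50 and ip 200 include 0.

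At iv 200 mg/kg the mice differed among themselves more than in any other group, with SDs of 1.58 for Mki67, 1.54 for Rrm2, 1.63 for Birc5 and 1.26 for Aurka, against 0.08 to 0.32 in iv saline. Means rose against iv saline by 2.25 for Rrm2 (1.46 to 3.04, adjusted p = 0.00012), 2.01 for Mki67 (1.20 to 2.82, adjusted p = 0.00071), 1.82 for Birc5 (1.09 to 2.55, adjusted p = 0.00071) and 0.94 for Aurka (0.36 to 1.53, adjusted p = 0.036) on the log2 scale. In this comparison 7.36% of all genes were called, 6.07% upward and 1.29% downward. Because limma pools the spread over all 8 groups, the test takes the iv 200 spread to be smaller than it was. With only iv 200 and iv saline fitted, no call was left (adjusted p = 0.058 for Rrm2, 0.09 for Mki67, 0.12 for Birc5 and 0.29 for Aurka). An exact permutation test over the 6 and 6 mice, two-sided and added after the values were seen, gave p = 0.0022 for Birc5, the smallest it can give and one that needs the separation of mouse 28 from the highest control, 0.0087 for Mki67, 0.013 for Rrm2 and 0.032 for Aurka. Aurka lost its call without mouse 25 (0.49, adjusted p = 0.19), without mouse 30 (0.82, adjusted p = 0.11) and, at nearly the same size, without most single saline arrays.

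The 6 iv 200 mice kept nearly the same order across the 4 genes. Mouse 25 was highest in each, with 8.34 for Mki67, 8.77 for Rrm2, 7.14 for Birc5 and 5.34 for Aurka. Mouse 30 came next, with 7.16, 8.09, 6.07 and 3.67. Mice 27 (5.98, 7.42, 5.39 and 2.38) and 29 (5.83, 7.16, 3.79 and 2.85) were intermediate. Mice 26 (4.55, 5.79, 3.32 and 2.10) and 28 (4.12, 4.57, 3.18 and 2.12) were lowest. Mouse 25 therefore sat within the iv 400 range for Mki67, Birc5 and Aurka, while mouse 28 was within the iv saline range for Mki67, Rrm2 and Aurka.

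The same 2 mice were lowest in the injury marker Havcr1, which encodes KIM-1, a phosphatidylserine receptor made by damaged proximal tubule cells, with 10.72 in mouse 26 and 9.95 in mouse 28 against 12.53 to 13.74 in the other 4. Clu, which encodes clusterin, was also lowest there (12.18 and 10.47, against 13.75 to 14.37), a gene picked for display after its values were seen. Mouse 25 was highest in Clu as in the 4 proliferation genes. Havcr1 had another order among the other 4 mice. Mouse 27 had the highest Havcr1 (13.74) but not the highest Mki67, and mouse 25, below mice 27 and 29 in Havcr1 (12.63), had the highest level of all 4 proliferation genes. The array of mouse 27 also had the highest median of its group, 3.55.

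**Figure D3:**
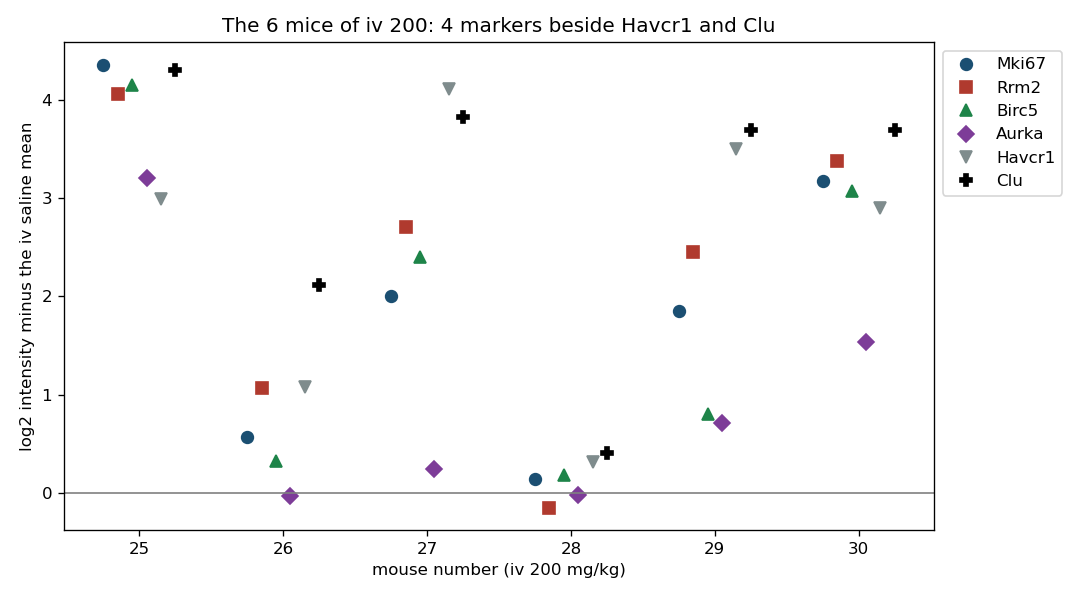
Log2 intensity minus the iv saline mean (vertical axis) for the 4 genes, Havcr1 and Clu in each of the 6 mice given iv 200 mg/kg, by mouse number (horizontal axis). Mice 26 and 28 are the lowest pair in all 6 genes, and mouse 25 is highest in the 4 proliferation genes and below mice 27 and 29 in Havcr1.

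Against iv 50 mg/kg, iv 200 was higher by 2.20 for Mki67, 2.14 for Rrm2, 1.73 for Birc5 and 0.99 for Aurka (adjusted p = 0.00022, 0.00022, 0.0012 and 0.028), with 6.88% of all genes called. These 4 calls were likewise lost with only the compared groups fitted. Iv 400 was higher than iv 200 by 2.71 for Birc5, 2.58 for Rrm2, 2.54 for Aurka and 2.48 for Mki67 (adjusted p between 9.2e-09 and 5.3e-06), with 31.2% of all genes called. The iv 400 mice were closer together (SD 0.29 to 0.49) than the iv 200 mice. Mouse 45 was lowest of the iv 400 group in all 4 genes (7.60 for Mki67, 8.88 for Rrm2, 6.60 for Birc5 and 5.18 for Aurka) and in Havcr1 (12.27).

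At the remaining doses none of the 4 genes passed the test, each with an adjusted p of 1. At iv 50 mg/kg the changes ran from -0.19 (Mki67, interval -0.998 to 0.62) to 0.11 (Rrm2, -0.68 to 0.90), where 0.54% of all genes were called. At ip 50 mg/kg they ran from -0.00 (Aurka, -0.59 to 0.58) to 0.77 (Rrm2, -0.02 to 1.56), and at ip 200 mg/kg from -0.14 (Birc5, -0.87 to 0.59) to 0.37 (Rrm2, -0.42 to 1.16). Ip 50 and ip 200 each had 0.087% of all genes called, and ip 200 against ip 50 had 0% called by limma, with 46 genes at an unadjusted p under 0.05. The intervals leave room for a change of up to about 1.56 on the log2 scale in Rrm2 at ip 50 mg/kg. One mouse of that group, mouse 68, was highest in Mki67 (5.74, next 3.89), Rrm2 (6.98, next 6.62), Birc5 (3.79, next 3.08) and Havcr1 (11.65, next 11.04), while its Aurka (2.06) was at background. The same mouse was only 4th of 6 in Clu (10.30) and had the lowest summed linear intensity of the DNA synthesis genes in its group (3026, against 3172 to 4137). Such a sum gives most weight to genes of high intensity. Its sums of injury genes (6287.5) and fibroblast genes (4490.1) were the highest of the group, and its mitosis sum was 2426.3 (group range 1970.0 to 2591.9).

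Between the saline groups none of the 4 genes passed the test with 8 groups fitted, and Mki67 passed with only the saline groups fitted (adjusted p = 0.015). Of all genes 57.7% passed, and the median gene was 0.41 higher by ip on the log2 scale. The ip minus iv difference was -0.51 for Mki67 (adjusted p = 0.27), 0.36 for Rrm2 (0.44), 0.02 for Birc5 (0.96) and -0.08 for Aurka (0.83). After each array was centred on its median, the median gene was still 0.25 higher by ip, and after quantile normalization it was -0.04. After quantile normalization 1343 genes were still called in place of 3315. Route and any other difference between the 2 sets of arrays cannot be told apart, and changes with dose are taken within a route.

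The effect of 200 mg/kg passed the test of a difference between routes for Birc5 alone, with an ip change 1.96 lower than the iv change on the log2 scale (adjusted p = 0.046). For Mki67 (-2.10, adjusted p = 0.054), Rrm2 (-1.88, adjusted p = 0.083) and Aurka (-0.94, adjusted p = 0.32) the difference of effects did not pass, and 0.975% of all genes were called. These values lie on both sides of the threshold and moved over it with the setting: with array weights Mki67, Rrm2 and Aurka passed too (adjusted p = 7.5e-05, 0.00065 and 0.0036), and with only the 4 groups fitted Birc5 did not (adjusted p = 0.11). Birc5 also lost its call with no filter (adjusted p = 0.072), with centred arrays (0.057), with the offset of 16 (0.14) and without most single arrays. At 400 mg/kg no difference between routes passed for the 4 genes. It was 1.14 for Mki67 (-0.00 to 2.29, adjusted p = 0.26), 0.14 for Birc5 (-0.89 to 1.18), 0.02 for Aurka (-0.80 to 0.85) and -0.30 for Rrm2 (-1.41 to 0.82), with 4.23% of all genes called. At 50 mg/kg the difference ran from -0.01 (Birc5) to 0.66 (Rrm2), each with an adjusted p of 1, and 0.191% of all genes were called.

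Direct partners and relatives of the 4 proteins came next. Of 23 such genes listed, 12 were named and 11 tested. At iv 400 mg/kg 6 rose and 0 fell, at ip 400 mg/kg 8 rose and 1 fell, and at iv 200 mg/kg 3 rose and 0 fell. Their median log2 fold changes were 0.86, 1.00 and 0.30, beside medians over all genes of 0.08 at iv 400, 0.11 at ip 400 and 0.06 at iv 200. Of all genes, 30.7% rose at iv 400, 36.3% at ip 400 and 6.07% at iv 200. Of the 11 tested, 8 would have passed the filter on low values without the iv 200, iv 400 and ip 400 arrays. Among those 8, 4 rose at iv 400, 6 at ip 400 and 2 at iv 200. Incenp, the scaffold of the chromosomal passenger complex, rose by 2.03 at iv 400 and 2.06 at ip 400, and by 0.72 at iv 200 (adjusted p = 0.00898). Aurkb, the kinase of that complex, rose by 1.86 at iv 400 (adjusted p = 3.16e-07) and 2.89 at ip 400 (adjusted p = 3.1e-12), and its iv 200 value was 0.35 (adjusted p = 0.501). The Aurkb means outside the 400 mg/kg groups were 2.28 to 2.67, under the table median, so its sizes depend on the floor of the array.

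Bora, an activator of Aurora A, rose by 1.76 at ip 400 mg/kg (adjusted p = 4.26e-13), and its iv 400 value was 0.31 (adjusted p = 0.1). The scaffold Ajuba rose by 0.86 (iv 400) and 1.00 (ip 400). The nuclear exporter Xpo1 rose by 1.12 and 0.90, and by 0.58 at iv 200. Among the inhibitor of apoptosis genes of the Birc5 family, Birc3 rose by 2.76 (iv 400) and 3.51 (ip 400) and Birc2 by 1.00 and 1.71, while Xiap, with group means of 3.19 to 3.43 under the table median, was too close to background for its values (0.01 and -0.15) to be set against these. The Xiap antagonist Diablo stood at 0.08 and -0.12. Nifk, which binds Ki-67, rose by 0.39 at ip 400 (adjusted p = 0.0232) and was at 0.32 at iv 400 (adjusted p = 0.0696), and Nucks1 fell by 0.34 at ip 400 (adjusted p = 0.00998) and was at 0.08 at iv 400.

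The DNA synthesis and licensing genes, which act with Rrm2 in S phase, rose in both 400 mg/kg groups. Of 50 listed, 25 were named and 23 tested; 23 rose at iv 400 mg/kg (median log2 fold change 1.44) and 21 at ip 400 mg/kg (median 1.35), and 0 fell, beside 30.7% and 36.3% of all genes that rose. Pcna, the sliding clamp of DNA polymerase, rose from 10.29 ± 0.20 (SD, n = 6) in iv saline to 11.92 ± 0.38 at iv 400 and from 10.53 ± 0.24 in ip saline to 11.76 ± 0.31 at ip 400 (log2 changes 1.62 and 1.23). Hells, a chromatin remodeller, rose by 3.18 (iv 400) and 3.62 (ip 400). Lig1, the ligase of replication, rose by 2.59 and 3.45. Dbf4, the activating subunit of the Cdc7 kinase, rose by 2.36 and 3.43, and the licensing factor Cdt1 by 2.38 and 1.87.

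Mitosis and cytokinesis genes, the group to which Birc5, Aurka and Mki67 belong by function, rose as well. Of 74 listed, 40 were named and 36 tested. At iv 400 mg/kg 32 rose and 0 fell (median 1.68), and at ip 400 mg/kg 34 rose and 2 fell (median 1.95), beside the same shares of all genes. With 16 added to every intensity the counts were the same, but the medians were 0.70 and 1.03 for mitosis, beside 1.07 and 1.05 for DNA synthesis, so the sizes of the mitosis list depend on the floor of the array. Cyclin A2, Ccna2, had the largest changes of the list, 4.32 at iv 400 (adjusted p = 2.04e-13) and 4.84 at ip 400 (adjusted p = 1.8e-15). Cdca5, which encodes sororin of sister chromatid cohesion, rose by 3.77 and 3.88. The kinetochore protein gene Cenpf rose by 2.87 and 3.74 and the checkpoint kinase Bub1 by 2.63 and 3.45. The 2 that fell at ip 400 were Spc25, a kinetochore subunit (-0.61, adjusted p = 0.00276), and Foxm1, a transcription factor of mitotic genes (-0.17, adjusted p = 0.0256), both named after their values were seen. Foxm1 lay near the table median in every group, and Spc25 was at 9.14 in iv saline and 8.71 at ip 400 mg/kg.

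These counts are not independent of the filter, since a gene silent in saline could pass only through treated arrays. Of the 36 tested mitosis genes, 13 would have passed without the iv 200, iv 400 and ip 400 arrays, and of those 9 rose at iv 400 and 11 at ip 400 mg/kg. For DNA synthesis it was 16 of 23, with 16 and 14 rises. With no filter, 34 of all 40 named mitosis genes and 23 of 25 named DNA synthesis genes rose at iv 400 mg/kg.

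At iv 200 mg/kg 7 of the 23 DNA synthesis genes (median 0.51) and 9 of the 36 mitosis genes (median 0.50) rose and 0 fell, among them Ccna2 (2.13, adjusted p = 8.56e-05), Cdca5 (1.49, adjusted p = 0.00071), Cdt1 (1.23, adjusted p = 0.00544) and Hells (1.01, adjusted p = 0.0118). Cdca5 and Hells were at background in iv saline (means 2.70 and 2.80). Of the 16 DNA synthesis and 13 mitosis genes that would have passed the filter without the iv 200, iv 400 and ip 400 arrays, 6 and 3 rose at iv 200. With no filter, 6 of 25 named DNA synthesis genes and 8 of 40 named mitosis genes rose at iv 200. Of all genes 6.07% rose there, and with the offset of 16 the mitosis median was 0.23 and each list had 6 rises. Without mouse 25 the counts were 3 and 3, without mouse 28 they were 12 and 16, and with only the compared groups fitted 0 and 0. At ip 200 mg/kg no gene of either list was called. The difference of the 200 mg/kg effect between routes passed for 1 of the 36 mitosis genes, Ccna2 (ip minus iv -1.99, adjusted p = 0.0402 by limma). Over all genes 0.975% were called in that comparison. No alternative was run on this value. The Ccna2 means in saline, at 50 mg/kg and at ip 200 were 2.48 to 3.30, under the table median, and its iv 200 SD was 1.48.

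The G1 cyclin, E2F and Rb list, which holds the switch from rest to S phase, moved in both directions. All 21 named genes were tested: 14 rose and 4 fell at iv 400 mg/kg (median 0.71), and 12 rose and 4 fell at ip 400 mg/kg (median 0.74). Over all genes 30.7% rose and 19% fell at iv 400, and 36.3% rose and 25.1% fell at ip 400, so the count of falls is near or under the background. Cks1b, a cyclin-dependent kinase subunit, rose by 3.70 and 3.86, the growth factor response gene Myc by 3.07 and 3.72, and the kinase Cdk6 by 1.98 and 2.05. Rbl1, which encodes p107, rose by 1.50 and 0.98. The genes that fell at iv 400 were Rbl2 (-0.62), Ccnd1 (-0.49), Tfdp2 (-0.47) and Rb1 (-0.45), and at ip 400 they were Ccnd1 (-0.65), Cks2 (-0.59), Rbl2 (-0.50) and Tfdp2 (-0.46), all named after their values were seen. Rbl2 encodes p130, a pocket protein of resting cells, and Ccnd1 encodes cyclin D1 of the G1 phase. At iv 200 mg/kg 3 rose, Cks1b (1.85), Cdk6 (0.91) and Rbl1 (0.71), and 0 fell. The difference of the 200 mg/kg effect between routes passed for 1 of the 21, Cks1b (-1.58, adjusted p = 0.0339), beside 0.975% of all genes called. No alternative was run on this value, and the iv 200 SD of Cks1b was 1.10.

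Inhibitors and genes of quiescence moved both ways. Of 13 tested, 5 rose and 2 fell at iv 400 mg/kg (median 0.17) and 6 rose and 2 fell at ip 400 mg/kg (median 0.28). These shares are near those of all genes (30.7% up and 19% down at iv 400, 36.3% and 25.1% at ip 400), and say nothing particular about the list. Cdkn1a, which encodes the cyclin-dependent kinase inhibitor p21, rose by 1.79 at iv 400 (adjusted p = 5.29e-06) and 2.38 at ip 400 (adjusted p = 8.04e-09), beside the proliferation genes. At iv 200 it did not pass against either reference, with -0.37 against iv saline (adjusted p = 0.534) and 0.81 against iv 50 (adjusted p = 0.116), since its mean was 7.11 in iv saline and 5.94 at iv 50. Klf4 rose by 0.98 and 2.66 and Btg1 by 0.93 and 1.39. The antiproliferative gene Tob1 fell by 1.33 and 0.51, and by 1.03 at iv 200 (adjusted p = 0.000132). Wee1 rose by 0.40 at iv 400 and 1.08 at ip 400. Klf9 fell by 1.02 and 0.60, and is named beyond the largest changes of the list. With each array centred on its median, 3 of the 13 rose at iv 400 mg/kg in place of 5.

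Within the ip 400 group the mice highest in the 4 genes were lowest in Cdkn1a. Mice 103 and 107 had Mki67 at 9.74 and 9.31, Rrm2 at 9.80 and 10.32, Birc5 at 8.07 and 8.56 and Aurka at 6.14 and 6.75. Their Cdkn1a was 7.73 and 8.24, against 8.74 to 9.71 in the other 4 mice. In iv 400 the order was mixed: mouse 48 had both the highest Mki67 (8.99) and the highest Cdkn1a (9.72). Mouse 43 had the highest Birc5 (7.88) and the lowest Cdkn1a (8.34), and mouse 46 the highest Rrm2 (10.06) with Cdkn1a at 8.41. Mouse 45, lowest in all 4 genes, had Cdkn1a at 8.54. No test was made of these orders within groups.

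**Figure D4:**
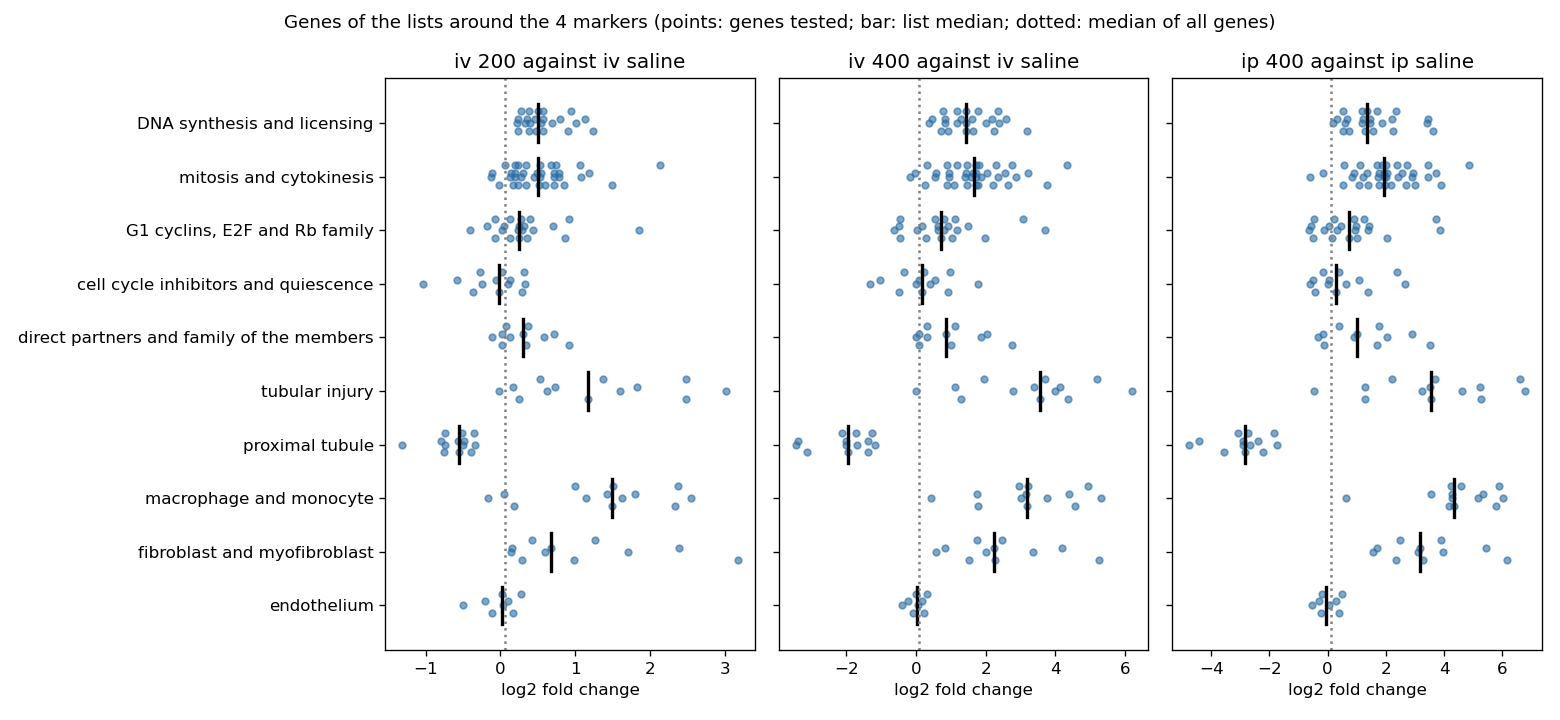
Log2 fold change (horizontal axis) of every tested gene (points) in 10 gene lists at iv 200, iv 400 and ip 400 mg/kg against saline, with the list median (bar) and the median of all 5745 genes (dotted). Most DNA synthesis and mitosis genes lie to the right of the dotted line at 400 mg/kg, with list medians between 1.35 and 1.95. Proximal tubule genes lie to the left there, and injury, macrophage and fibroblast genes reach beyond 5.

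Over the 48 arrays, the genes whose log2 levels were most alike to the 4 were mainly cell cycle genes. This is a description over arrays that share their groups, and the 400 mg/kg groups set much of it. Among 5745 genes the closest to Birc5 was Cdca5 (Pearson r = 0.995), followed by Mki67 (0.982) and Ccna2 (0.981). The closest to Mki67 was Ccna2 (0.984), then Birc5, Cdca5 (0.977), Cenpf (0.969) and Ly86 (0.969), the last a myeloid gene of lipopolysaccharide sensing. The closest to Rrm2 was Cks1b (0.970), then Birc5 (0.967), Cdca5 (0.966), D17H6S56E-5 (0.965) and Mki67 (0.961). The closest to Aurka was Cdca5 (0.981), then Birc5 (0.979), Incenp (0.976), Cenpf (0.976) and the chromatin assembly gene Chaf1b (0.975). After group means were subtracted, the closest were Ccna2 for Mki67 (0.895) and Rrm2 (0.836), Cdca5 for Birc5 (0.946) and the spindle gene Ckap2 for Aurka (0.898). Between pairs of the 4 genes, r of these deviations lay from 0.643 (Rrm2 and Aurka) to 0.843 (Mki67 and Birc5). The iv 200 mice had the largest SD of any group in each of the 4 genes (1.26 to 1.63). They therefore weigh heavily in these values.

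Markers of other cell types moved in the same samples. All 13 tested macrophage and monocyte genes rose at iv 400 (median log2 fold change 3.20) and at ip 400 mg/kg (median 4.34), and 10 of 13 at iv 200 (median 1.49). The shares of all genes that rose were 30.7%, 36.3% and 6.07%, and those that fell 19%, 25.1% and 1.29%, which are the background for each marker list here. Their summed linear intensity ranged from 669 to 806 in iv saline, 617 to 795 at iv 50, 846 to 4389 at iv 200, 5699 to 15478 at iv 400, 689 to 1319 in ip saline, 798 to 1061 at ip 50, 911 to 1318 at ip 200 and 13153 to 31064 at ip 400 mg/kg. Mice 26 and 28 were again lowest of iv 200, with sums of 1085 and 846 against 2477 to 4389. Fibroblast and myofibroblast genes rose in 11 of 11 cases at both 400 mg/kg doses (medians 2.25 and 3.17) and in 5 of 11 at iv 200. Their sums ran from 1539 to 2317 with iv saline, 1660 to 2234 with iv 50, 2178 to 7150 with iv 200, 6587 to 16504 with iv 400, 2052 to 3170 in ip saline, 2207 to 4490 at ip 50, 2620 to 3914 at ip 200 and 11852 to 23497 at ip 400 mg/kg. No named marker of either list lay at or below the table median in all arrays. Without the iv 200, iv 400 and ip 400 arrays, 11 of the 13 macrophage genes and 9 of the 11 fibroblast genes would have passed the filter. All of those rose at both 400 mg/kg doses.

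Tubular injury genes rose in 12 of 13 cases at both 400 mg/kg doses and in 7 of 13 at iv 200, while all 13 proximal tubule genes fell at both 400 mg/kg doses (medians -1.95 and -2.85) and 2 of 13 fell at iv 200. Of the injury genes, 10 would have passed the filter without the iv 200, iv 400 and ip 400 arrays. Among those 10, 9 rose at each 400 mg/kg dose and 5 at iv 200. Injury sums ran from 2706 to 4601 in iv saline, 3926 to 34187 at iv 200, 24635 to 44327 at iv 400, 3615 to 6066 in ip saline, 4798 to 6292 at ip 200 and 30748 to 46979 at ip 400 mg/kg. Havcr1 rose by 2.48 at iv 200 (adjusted p = 8.02e-05), 3.55 at iv 400 (adjusted p = 1.67e-09) and 3.26 at ip 400 (adjusted p = 5.46e-09). Of 8 endothelial genes 0 rose and 1 fell at iv 400 mg/kg, and 1 rose and 1 fell at ip 400 mg/kg. Many lymphocyte and neutrophil markers were near background: of 9 named T and NK genes 5, of 8 named B and plasma cell genes 4 and of 4 named neutrophil genes 2 lay at or below the table median in all arrays. Among those were Cd2 and Foxp3 of T cells, Ms4a1, Cd79a and Pax5 of B cells and Elane of neutrophils. T and NK sums ran from 61.1 to 71.3 at iv 400 and 62.8 to 111.0 at ip 400 mg/kg, against 62.9 to 70.3 in iv saline and 64.0 to 72.8 in ip saline. Of the tested genes of these lists, both B and plasma cell genes rose at 400 mg/kg: the immunoglobulin heavy chain gene Ighm by 1.31 (iv) and 2.51 (ip), and Xbp1, a transcription factor of secretory cells, by 0.95 and 0.59. B and plasma cell sums ran from 734 to 1282 in iv saline, 830 to 2202 at iv 200, 1435 to 2482 at iv 400, 1128 to 1462 in ip saline and 1870 to 2432 at ip 400 mg/kg. The granulocyte receptor gene Csf3r, the tested neutrophil gene, rose by 1.27 at ip 400 (adjusted p = 5.83e-06) and was at 0.42 at iv 400 (adjusted p = 0.126), with neutrophil sums of 24.5 to 25.6 in ip saline and 24.0 to 69.5 at ip 400. Csf3r passed the filter on low values only through the iv 200, iv 400 and ip 400 arrays, so its call is not independent of the filter. Its mean in ip saline was 3.32, under the table median. The 1 tested T and NK gene, Cd8a, fell at ip 400. With no filter, 2 of the 9 named T and NK genes rose and 3 fell at ip 400. Of 4 red blood cell precursor genes 1 rose and 1 fell at iv 400 and 1 rose and 2 fell at ip 400 mg/kg. Ighm, Xbp1, Csf3r and Cd8a are named after their values were seen. Which cells carried the 4 transcripts, and the part that any of these cell types had in their levels, was not tested.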

How the data were processed

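Kidney RNA of 48 mice was labelled with biotin and measured on 1 array per mouse, per the labels' protocols. The authors deposited linear intensity values of 45101 probe sets, for which the submitters' processing notes name GCRMA; its version is not given in the sources used here. Intensities from 1.78 to 63594.4 were taken to log2 without an offset. Rows 751 to 3250, 5001 to 11750 and 34251 to 36000 were named from identifiers shifted by 64, -47 and -16168 rows. The named row with the highest mean stood for each gene, and 5745 of 7859 genes passed the filter (log2 above 3.47 in at least 6 arrays). Genes were fitted with limma 3.58.1 in R 4.3.3 (lmFit, contrasts.fit, eBayes with trend, 8 groups in 1 fit, 40 residual degrees of freedom), with two-sided p-values adjusted in each comparison by Benjamini-Hochberg and a threshold of 0.05. The procedure was tested on simulated data. Mice are numbered separately in the labels and were treated as independent. The number of an iv 50 mouse, taken as 78, is written irregularly in its title. No batch is named. The 4 genes, the 14 gene lists and the tests were chosen with earlier results of these data known, so nothing here is independent support for them. Named besides the 4 genes were all tested direct partners, up to 4 genes of a cell cycle list with the largest change among those called at 400 mg/kg, Pcna, Cdkn1a and Havcr1, and the 5 genes most alike, with exceptions stated. The number of arrays limits the precision. Alternatives were the filter, array scaling, an offset, the variance trend, array weights, the groups fitted, each array left out and the identifiers as listed.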

Additional observations from a re-analysis of the deposited data

Results flagged for a closer look

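In groups of 6 mice, a single array stood apart from the rest (by the gap to its nearest neighbour against the range of the group) in 5 of 32 groups of the 4 genes; about 1 in 20 is flagged by chance. Mki67 at ip 50 mg/kg had its highest array at 5.74 and Birc5 at ip 50 mg/kg at 3.79, both mouse 68. Aurka had its highest array at 2.29 in iv saline, its lowest at 2.02 in ip saline and its highest at 2.17 at ip 200 mg/kg, all at background.

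The effect of 200 mg/kg on Birc5 passed the test of a difference between routes, with an ip minus iv value of -1.96 (adjusted p = 0.046, limma). The call was lost with no filter (adjusted p = 0.072), with centred arrays (0.057), with an offset of 16 (0.14), with only the compared groups fitted (0.11) and without most single arrays. Birc5 passed the filter on low values through treated groups, with 1 of 30 other arrays above it. None of the ip mice was above the highest of their controls, and of the iv mice 2 of 6 were, like all controls, under the table median.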

How the results depend on the processing

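The 400 mg/kg rises of all 4 genes against saline, and their rises against 200 mg/kg, kept direction and call under every alternative run on the named rows. With the identifiers as listed, Mki67 changed by -0.66 at iv 400 and -0.57 at ip 400, Birc5 by -0.46 and -0.76, and Aurka by -0.030 at iv 400 mg/kg, so these results stand or fall with the row shift. Rrm2 by both routes and Aurka at ip 400 mg/kg kept direction and call with the identifiers as listed. Their names too hold only as far as the shift does. The calls at iv 200 were the least stable. With only the compared groups fitted none was left, against saline (Mki67 2.01, Rrm2 2.25, Birc5 1.82, Aurka 0.94) or against iv 50 (2.20, 2.14, 1.73 and 0.99). Aurka against iv saline also lost its call with no filter (0.94, adjusted p = 0.051), centred arrays (0.92, 0.054) and an offset of 16 (0.37, 0.18), and against iv 50 with the offset (0.38, 0.19). With 1 array left out, Aurka lay from 0.49 to 1.14 against saline and from 0.54 to 1.18 against iv 50, the lower ends without mouse 25.

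The route difference at 200 mg/kg for Birc5 lost its call with no filter (-1.96), centred arrays (-1.91), the offset (-1.09) and only the compared groups (-1.96), and lay from -2.29 to -1.49 with 1 array left out, where most choices ended the call. With array weights it was called for Mki67 (-2.58), Rrm2 (-2.21) and Aurka (-1.20). With 1 array left out it lay from -2.48 to -1.63 for Mki67 and from -2.36 to -1.52 for Rrm2, and was called without mouse 26 or mouse 28. Mki67 was lower in ip than iv saline (-0.51, adjusted p = 0.015) with only those groups fitted.

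Counts over all genes moved with the setting: at iv 200 against saline 423 became 1399 with array weights, 77 with only the compared groups and 271 without mouse 25; against iv 50, 395 became 816, 72 and 231, and 595 without mouse 28. The route difference at 200 mg/kg went from 56 to 714 with weights and 31 with no filter, and that at 400 mg/kg from 243 to 641 with weights, 370 with the offset and 74 with only the compared groups. The saline difference between routes went from 3315 to 2135 with centred and 1343 with quantile-normalized arrays. The share of rises among calls was 82.5% at iv 200, 61.8% at iv 400 and 59.1% at ip 400 as deposited, and 66.6%, 52.8% and 49.7% after quantile normalization. No paired analysis was possible because no mouse number is shared between groups, and each gene had a single named row, so no second row was tried. GCRMA levels under 3.47 are not told from background, which limits the sizes given for Birc5 and Aurka and, by ip, for Mki67.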
